A study of Homo sapiens with 3 samples.

Results

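The 8 genes described here encode the core of phosphatidylinositol 3-kinase (PI3K) and AKT signalling. They are the PI3K subunits PIK3CA, PIK3CB and PIK3R1, the kinases PDPK1, AKT1 and AKT2, and the phosphatases PHLPP1 and PHLPP2. They were chosen with earlier results of these data known and taken by gene symbol among 61806 genes in the count table. All 8 of 8 were abundant enough to be tested. The study sequenced total RNA of cells labelled KG1, a human acute myeloid leukaemia cell line. RNA was taken after lentiviral delivery of short hairpin RNAs against UCP2, a carrier of the inner mitochondrial membrane. There were 3 libraries: 1 carrying the negative control vector (NC), and 1 for each of the hairpins shUCP2#2 and shUCP2#3. All 3 were grown in the same medium, and transduced cells were selected before use. The 2 hairpin libraries were taken as 2 samples of 1 group, so their spread includes any difference between the hairpins, and nothing in the labels says that cultures were repeated. The control has no replicate, so a trait of that single library and an effect of the hairpins cannot be told apart.

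In this pathway, receptors and adaptors recruit a PI3K made of a catalytic and a regulatory subunit, which phosphorylates a membrane lipid. The lipid draws PDPK1 and AKT to the membrane, where PDPK1 phosphorylates the activation loop of AKT and the mTORC2 complex phosphorylates its hydrophobic motif. PHLPP1 and PHLPP2 remove the phosphate from the hydrophobic motif. Leukaemia cells often depend on this pathway for growth and survival. RNA counts measure none of these phosphorylation steps.

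The stretches of the AKT1 and AKT2 coding sequences that hold those sites are shown because PDPK1, mTORC2 and the PHLPP phosphatases all act on them. Each stretch holds 51 bases of the longest coding transcript in GENCODE 29, and capitals mark the codon of the phosphorylated residue. The activation loop codon is number 308 of 480 in AKT1 and 309 of 481 in AKT2, and the hydrophobic motif codon is number 473 in AKT1 and 474 in AKT2.
AKT1 activation loop: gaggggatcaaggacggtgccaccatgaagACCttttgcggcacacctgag
AKT2 activation loop: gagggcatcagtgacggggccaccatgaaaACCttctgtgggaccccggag
AKT1 hydrophobic motif: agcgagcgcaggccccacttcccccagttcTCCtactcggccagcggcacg
AKT2 hydrophobic motif: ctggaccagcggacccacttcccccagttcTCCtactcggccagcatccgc
The genes share 41 of 51 bases in the first stretch and 38 of 51 in the second. The longest run of identical bases between any AKT1 and AKT2 coding transcripts was 32.

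The library totals were 18375090 counts in the control, 16475165 in shUCP2#2 and 17562153 in shUCP2#3. UCP2 itself, the targeted gene, had 651 counts in the control, 608 in shUCP2#2 and 649 in shUCP2#3. Its fitted log2 fold change was 0.06 (SE 0.15, edgeR quasi-likelihood test, adjusted p = 0.888), with a 95% interval of 0.846 to 1.28 for the fold. UCP2 RNA was therefore not lower in the libraries labelled as knockdown, and every direction below is between libraries as labelled. Of the 10 markers of progenitor and myeloid cells, only CD33, KIT and SPN were above 10 CPM (counts scaled to a common library total) in all 3 libraries. HLA-DRA, HLA-DRB1, CD38 and MPO had 0 counts in all, and CD34, a defining antigen of the KG1 line, had 0, 10 and 0 counts. Of 12 erythroid markers, 10 were above 10 CPM in all libraries, with a summed level of 4241 CPM in the control against 3180 in shUCP2#2 and 3177 in shUCP2#3. Among these 12, 8 fell and 1 rose, and the part of this shift in the results below was not tested. Of 5 epithelial markers, 4 were above 10 CPM in all libraries. They summed to 603 CPM in the control, 596 in shUCP2#2 and 569 in shUCP2#3. Whether the cells are KG1 was not tested. The 10 fibroblast markers summed to 4937 counts in the control, 7145 in shUCP2#2 and 3677 in shUCP2#3. Most of these were FN1, a matrix protein gene, with 4903, 4583 and 3642 counts (log2 fold change -0.14, adjusted p = 0.357), and the other 9 summed to 34, 2562 and 35.

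Among the 8 genes, PIK3CA, PIK3R1 and PHLPP2 rose in the hairpin libraries, AKT1 fell, and PIK3CB, PDPK1, AKT2 and PHLPP1 did not pass the test. PHLPP2 had the largest difference, at 2.09 times the control level, and AKT1 fell to 0.655 of it. Against this count of 4 called of 8, 12.4% of the 15232 genes tested were called at an adjusted p under 0.05. Since the 8 were chosen with earlier results of these data known, this count is no independent support. By DESeq2 only AKT1 of the 8 was called (adjusted p = 0.0334). Over all genes, DESeq2 called 323 higher and 293 lower of 8036 tested. By limma on log2 FPKM and by edgeR without an abundance trend 0 of the 8 were called, with 2 and 3 of them at an unadjusted p under 0.05. These fits called 0 of all 15232 genes, so their 0 is not particular to the 8. Split by direction, 6.25% of all tested genes were higher and 6.11% were lower. The median log2 fold change was 0.19 over the 8 genes and 0.02 over all genes tested. In bulk RNA, fewer cells of a type and less RNA per cell cannot be told apart.

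**Figure D1:**
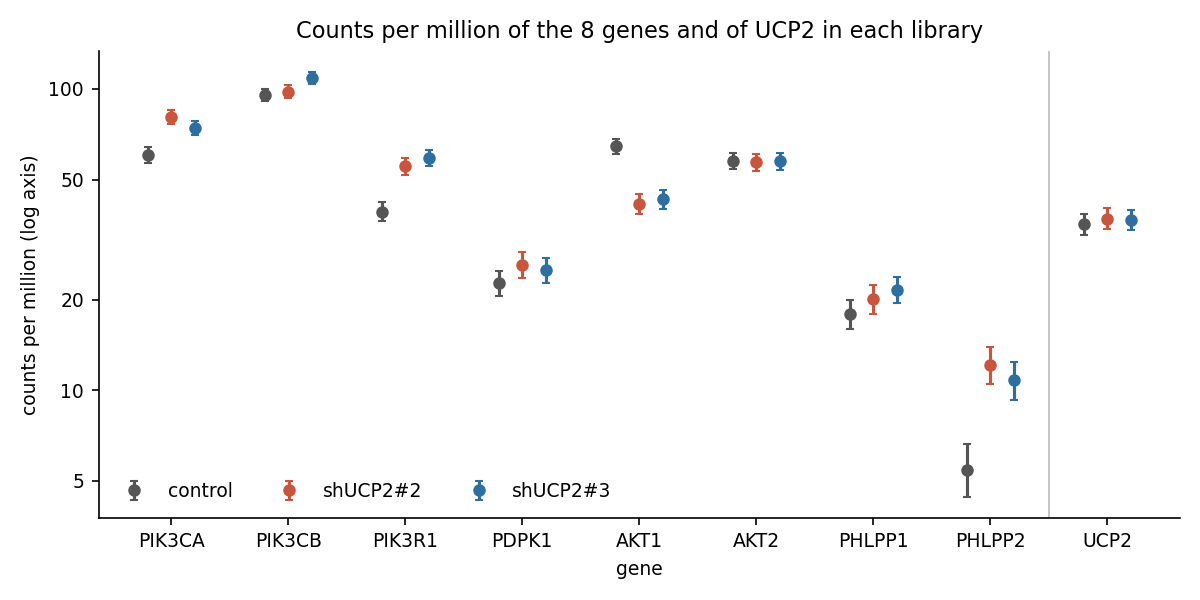
CPM (log axis) of the 8 genes and of UCP2 in the control, shUCP2#2 and shUCP2#3 libraries. Points are single libraries and bars are exact 95% Poisson intervals, which cover counting error only. AKT1 is lower in both hairpin libraries (41.6 and 43.0 CPM) than in the control (64.6 CPM), PHLPP2 is higher (12.1 and 10.8 against 5.45 CPM), and UCP2 lies between 35.5 and 37.1 CPM.

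Of the PI3K subunits, PIK3CA encodes the alpha catalytic subunit, which is often mutated in solid tumours (ENSG00000121879, GRCh38 chr3:179148114-179240093, plus strand). It had 1109 counts in the control, 1327 in shUCP2#2 and 1311 in shUCP2#3. These are 60.5 CPM in the control and 77.7 ± 4.70 CPM in the hairpin libraries (SD, n = 2). Both hairpin libraries were above the control, and shUCP2#2 was the higher. The log2 fold change was 0.36 (SE 0.12, edgeR adjusted p = 0.0335). This call did not hold when transcript GC content and the exonic length of the gene were modelled, where the log2 fold change was 0.15 (edgeR adjusted p = 0.506). KCNMB3, a potassium channel subunit gene that overlaps PIK3CA on the other strand, had 146, 107 and 127 counts. Whether the counting used strand is not given in the sources used here.

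PIK3CB encodes the beta catalytic subunit, which G protein-coupled receptors can also activate (ENSG00000051382, chr3:138652698-138834928, minus strand). Its counts were 1753 in the control, 1604 in shUCP2#2 and 1920 in shUCP2#3, or 95.6 CPM in the control and 103 ± 7.76 CPM in the hairpin libraries (SD, n = 2). Only shUCP2#3 stood above the control beyond counting error, at a ratio of 1.14 (95% interval 1.07 to 1.22). The log2 fold change of 0.11 (SE 0.11) did not pass the test (adjusted p = 0.611). The fold lay between 0.934 and 1.25 at 95% confidence.

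PIK3R1 encodes the regulatory subunit that stabilises the catalytic subunits and holds them inactive until a phosphorylated receptor or adaptor binds (ENSG00000145675, chr5:68215740-68301821, plus strand). It had 718 counts in the control, 909 in shUCP2#2 and 1044 in shUCP2#3, or 39.1 CPM in the control and 57.3 ± 2.63 CPM in the hairpin libraries (SD, n = 2). Both hairpin libraries were above the control, as they also were for PIK3CB, PDPK1 and PHLPP1, which did not pass the test. The log2 fold change was 0.55 (SE 0.14, edgeR adjusted p = 0.00206), with 0.50 in shUCP2#2 and 0.60 in shUCP2#3. With GC content and length modelled it was 0.38 (adjusted p = 0.0488).

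PDPK1, the kinase of the AKT activation loop, had 416, 427 and 442 counts (ENSG00000140992, chr16:2537979-2603188, plus strand). These are 22.7 CPM in the control and 25.6 ± 0.706 CPM in the hairpin libraries (SD, n = 2). The log2 fold change of 0.17 (SE 0.18, adjusted p = 0.643) did not pass the test. PDPK1 shares a run of 864 identical bases with its copy PDPK2P, to which 16, 2 and 10 counts were assigned, so the PDPK1 values are uncertain by reads that could belong to either gene.

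AKT1, the most widely expressed AKT kinase, was the only one of the 8 genes that fell (ENSG00000142208, chr14:104769349-104795751, minus strand). It had 1185 counts in the control, 681 in shUCP2#2 and 759 in shUCP2#3, or 64.6 CPM in the control and 42.3 ± 1.04 CPM in the hairpin libraries (SD, n = 2). Both hairpin libraries were well below the control and close to each other. The fitted fold was 0.655 (95% interval 0.545 to 0.788), or -0.61 on the log2 scale with an SE of 0.14 (edgeR adjusted p = 0.000228). With GC content and length modelled it was -0.53 (adjusted p = 0.00162).

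AKT2, the AKT kinase best known for insulin-stimulated glucose uptake, had 1057, 934 and 1014 counts (ENSG00000105221, chr19:40230317-40285536, minus strand). It stood at 57.6 CPM in the control and at 57.2 ± 0.349 CPM in the hairpin libraries (SD, n = 2), so the 3 libraries were nearly level. The log2 fold change was -0.01 (SE 0.13, adjusted p = 0.983), and the fold lay between 0.830 and 1.19 at 95% confidence. That interval does not reach the fitted fold of AKT1, and the difference between the genes was not itself tested.

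PHLPP1 and PHLPP2 encode the phosphatases of the AKT hydrophobic motif. PHLPP1 (ENSG00000081913, chr18:62715541-62980433, plus strand) had 328, 328 and 380 counts. These are 17.9 CPM in the control and 20.8 ± 1.08 CPM in the hairpin libraries (SD, n = 2), and the log2 fold change of 0.22 (SE 0.19, adjusted p = 0.577) did not pass the test. PHLPP2 (ENSG00000040199, chr16:71637835-71724701, minus strand) was the least abundant of the 8, with 100 counts in the control, 198 in shUCP2#2 and 190 in shUCP2#3. It stood at 5.45 CPM in the control and at 11.4 ± 0.927 CPM in the hairpin libraries (SD, n = 2). The fitted fold was 2.09 (95% interval 1.39 to 3.15), or 1.07 on the log2 scale with an SE of 0.30 (edgeR adjusted p = 0.00628). By counting error alone the ratio to the control was 2.22 (95% interval 1.73 to 2.85) in shUCP2#2 and 1.98 (1.54 to 2.54) in shUCP2#3. With GC content and length modelled the log2 fold change was 0.95 (adjusted p = 0.0157).

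Both single-hairpin differences are taken against the same control library, and the 4 genes were called from both together, so a like sign in the 2 libraries is no independent support. In shUCP2#3 the log2 fold changes were 0.30 for PIK3CA, 0.60 for PIK3R1, -0.58 for AKT1 and 0.97 for PHLPP2. In shUCP2#2 they were 0.42, 0.50, -0.63 and 1.13 in the same order.

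**Figure D2:**
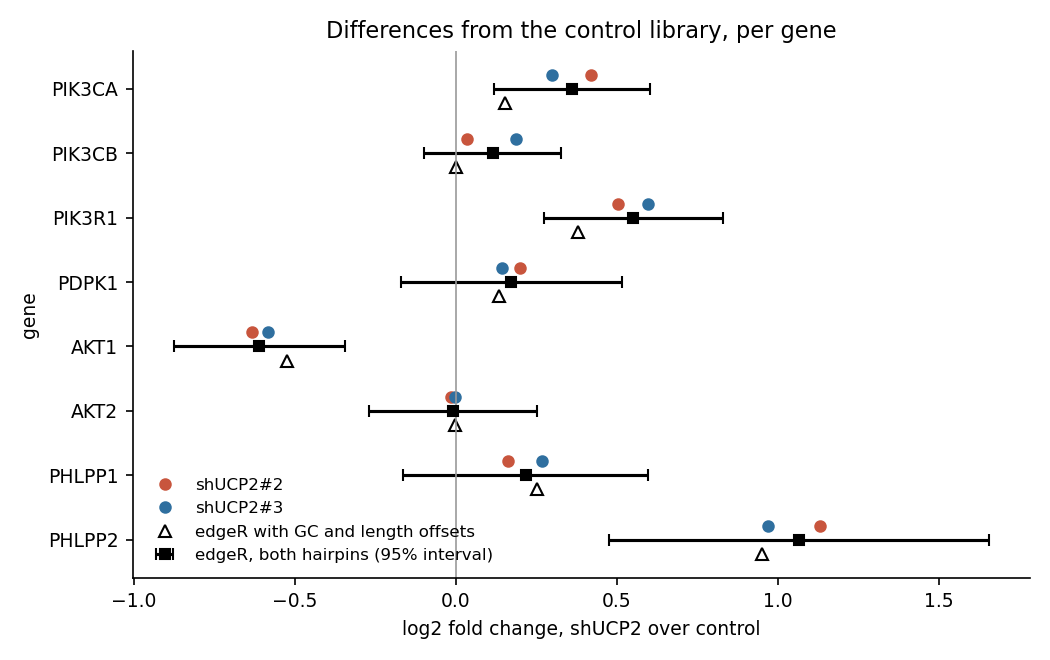
Log2 fold change of each gene, shUCP2 over control. Black squares are the edgeR estimates with 95% intervals, circles are the single hairpin libraries, and open triangles are the estimates with GC content and length offsets. The triangle of PIK3CA (0.15) lies well below its square (0.36), while AKT1 (-0.53) and PHLPP2 (0.95) stay near theirs.

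The promoter stretches of the genes with the clearest differences are shown because AKT1 fell while PIK3R1 and PHLPP2 rose. Each is the 250 bases before a gene start in RefSeq (GRCh38.p14), and capitals mark matches on either strand to the GC box GGGCGG, the forkhead motif GTAAACA or the ATF4 motif TGATGCAA. Matches may overlap each other.
AKT1 (chr14:104795749-104795998, minus strand): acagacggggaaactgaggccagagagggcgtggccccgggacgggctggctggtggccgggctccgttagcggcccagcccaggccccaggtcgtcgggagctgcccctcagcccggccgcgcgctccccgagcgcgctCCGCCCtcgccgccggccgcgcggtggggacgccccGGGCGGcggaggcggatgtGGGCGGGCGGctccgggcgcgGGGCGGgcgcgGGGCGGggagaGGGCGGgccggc
PHLPP2 (chr16:71724702-71724951, minus strand): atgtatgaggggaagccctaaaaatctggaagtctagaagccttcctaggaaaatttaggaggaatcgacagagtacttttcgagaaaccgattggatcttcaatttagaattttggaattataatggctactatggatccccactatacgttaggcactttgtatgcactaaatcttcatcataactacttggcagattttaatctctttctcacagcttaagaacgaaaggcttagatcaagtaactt
PIK3R1 (chr5:68215506-68215755, plus strand): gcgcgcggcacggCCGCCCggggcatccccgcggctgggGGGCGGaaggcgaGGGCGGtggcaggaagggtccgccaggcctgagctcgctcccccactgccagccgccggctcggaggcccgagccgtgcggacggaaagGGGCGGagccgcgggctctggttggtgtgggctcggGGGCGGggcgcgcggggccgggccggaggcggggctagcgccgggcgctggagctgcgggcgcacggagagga
The AKT1 stretch was 83.2% G and C with 39 CpG dinucleotides and 7 GC boxes, and that of PIK3R1 was 81.6% with 37 CpG and 5 GC boxes. The PHLPP2 stretch was 37.2% G and C with 5 CpG and 0 matches to the 3 motifs. Over 35116 promoter stretches of the same length the median was 58% G and C and 11 CpG, and 42.6% held a GC box, 2.98% the forkhead motif and 0.772% the ATF4 motif. These are matches of letters only.

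Per length of exon, in FPKM (the count scaled to gene length and library total), PIK3CB was the highest of the 8 genes in every library, at 12.17, 12.42 and 13.94. Next in the control came AKT1 at 5.89, then AKT2 at 3.62 and PIK3CA at 3.51, a pair whose levels were close. In the hairpin libraries PIK3CA (4.69 and 4.34) stood above AKT1 (3.77 and 3.95). PIK3R1 rose from 2.39 to 3.38 and 3.64, which overlaps AKT2 (3.57 and 3.63). PDPK1 (2.07 to 2.38) and PHLPP1 (1.97 to 2.39) overlapped, and PHLPP2 was the lowest at 0.44, 0.96 and 0.87. The table divides by the union of exons, which is 10955 bases for AKT1 against 3916 for its longest coding transcript. Divided by that transcript instead, a choice made after seeing the data, AKT1 reached 16.5, 10.6 and 11.0 on that scale and stayed above PIK3CA at 6.64, 8.86 and 8.21. The order of the levels thus depends on the gene length used as divisor, which cancels in the ratio of a gene between libraries.

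Within its family, AKT1 held 61.9% of the summed FPKM of AKT1 and AKT2 in the control, 51.4% in shUCP2#2 and 52.1% in shUCP2#3. The ratio of AKT1 to AKT2 was 1.63 in the control and 1.06 and 1.09 in the hairpin libraries. PHLPP2 held 18.3% of the PHLPP FPKM in the control, 30.4% in shUCP2#2 and 26.7% in shUCP2#3. The summed PHLPP FPKM was 0.253 of the summed FPKM of AKT1 and AKT2 in the control, 0.431 in shUCP2#2 and 0.430 in shUCP2#3. This ratio is of RNA levels per length, and both families contributed to its shift. Its size, like that of the shares given here, depends on the gene length used as divisor. Of the class I catalytic subunits, PIK3CB held between 56.6% and 58.1% in all libraries, and PIK3CA 16.8%, 21.4% and 18.0%. PIK3R1 held between 72.2% and 76.8% of the class IA regulatory FPKM, and PIK3R2 had 2, 12 and 1 counts.

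**Figure D3:**
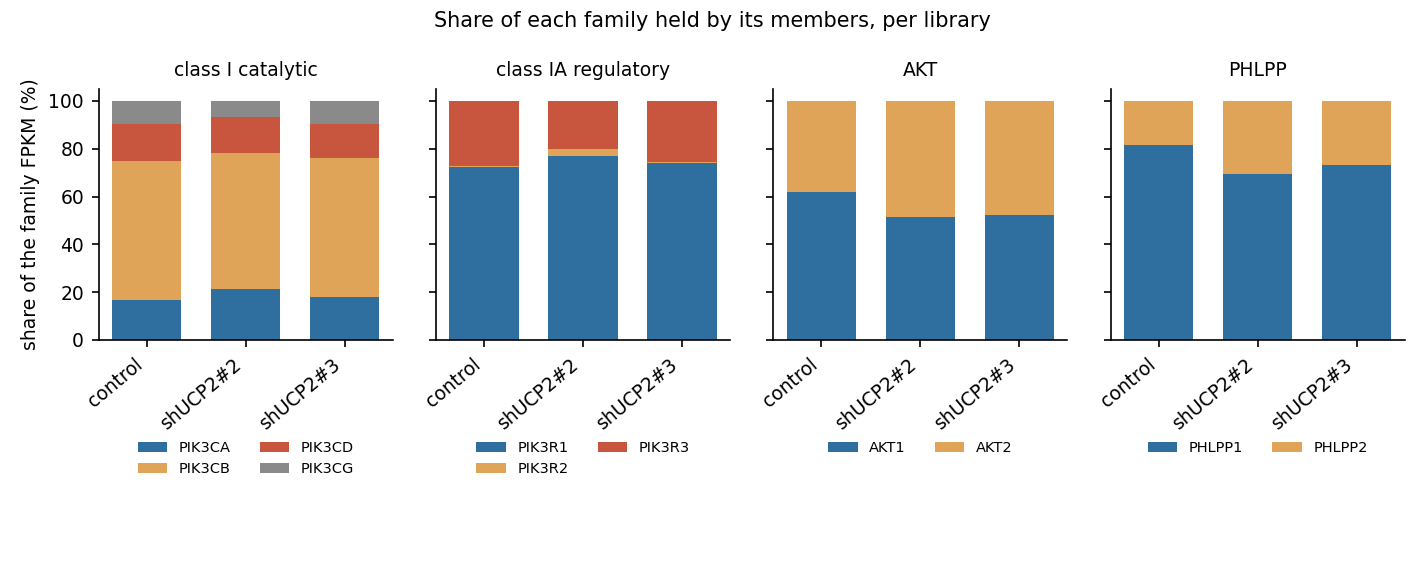
Share (%) of the summed FPKM of each family held by each gene, in the control, shUCP2#2 and shUCP2#3 libraries, for class I catalytic subunits, class IA regulatory subunits, AKT1 with AKT2, and PHLPP. The AKT1 share is smaller in both hairpin libraries (51.4% and 52.1%) than in the control (61.9%), and the PHLPP2 share is larger.

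Fold changes in these libraries moved with the GC content of the transcripts. Where the mean FPKM reached 1, the median log2 fold change was 0.09 under 40% GC and -0.19 over 60% GC. The share called higher was 13% in the first range and 1.91% in the last, and the share called lower was 4.46% and 13.4%. AKT1 has a GC content of 62.1%, and its 394 neighbours within 1 percentage point had a median of -0.17, against -0.61 for AKT1. PIK3CA, at 34.8% GC, was at 0.36 where its 269 neighbours had a median of 0.13. PIK3R1 (40.3%) and PHLPP2 (45%) lay in ranges with medians near 0, with neighbour medians of 0.04 and 0.03. AKT2 (58.3%) was at -0.01 and its neighbours at -0.15. What produced the trend was not tested.

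**Figure D4:**
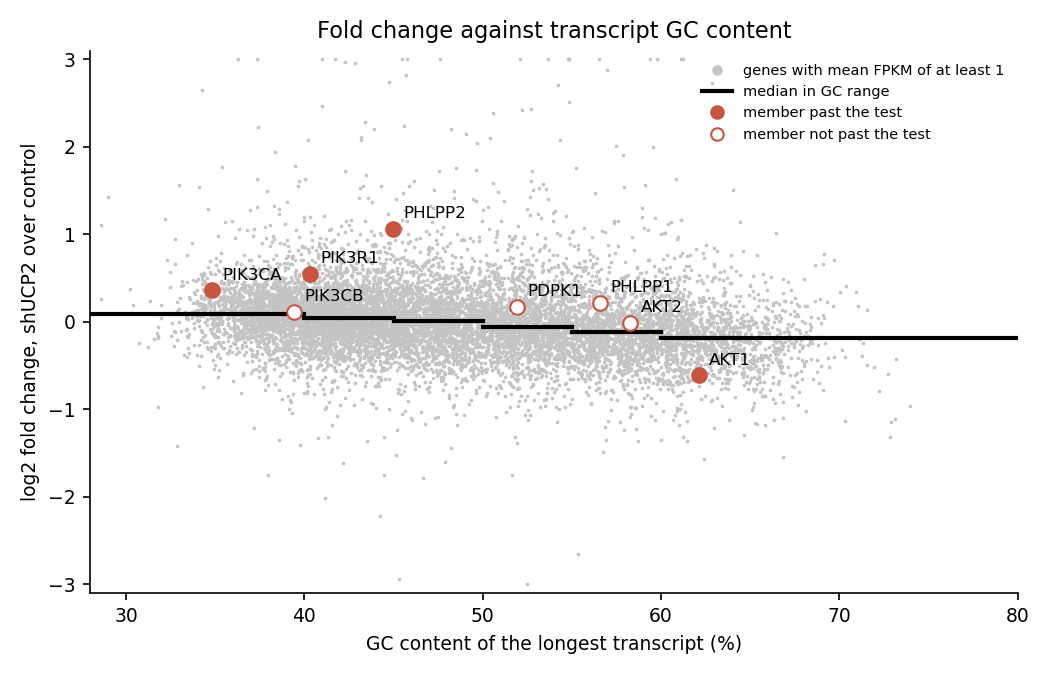
Log2 fold change (shUCP2 over control) against the GC content of the longest transcript (%). Grey points are genes whose mean FPKM reached 1, drawn at the upper or lower edge where they lie beyond the axis, black lines are medians within GC ranges, and red circles are the 8 genes, filled where the test was passed. AKT1 lies at 62.1% GC below the falling medians, and PHLPP2 lies highest at 45%.

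The wider pathway was described with 9 role lists holding 112 genes, also chosen with earlier results of these data known. Of the 112 genes, 97 were tested. Of these, 11 rose (11.3%) and 4 fell (4.12%), against 6.25% and 6.11% of all genes tested, and the median log2 fold change was 0.10 against 0.02. There was no role in which most tested genes were called. Of 18 tested receptors and adaptors, 22.2% rose and 0 fell, with a median log2 fold change of 0.40, the highest of the 9 lists. Their calls include PDGFRA and PDGFRB, whose counts lay mainly in shUCP2#2. Of the AKT substrates 5% rose and 5% fell.

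Among the other class I PI3K genes, 0 of 6 tested passed the edgeR test (PIK3CD, the delta catalytic subunit of leukocytes, at 0.05 and the inhibitor PIK3IP1 at -0.14 on the log2 scale). Of 4 class II and III genes, PIK3C2A, an endocytic PI3K, rose by 0.50 (SE 0.14, edgeR adjusted p = 0.00802), while PIK3R4, the regulatory partner of the class III enzyme, was at -0.12. Of 8 lipid phosphatases, INPP4A rose by 0.44 (SE 0.15, adjusted p = 0.0299). INPPL1, which removes a phosphate from the lipid that PI3K makes, had 1424, 1225 and 1218 counts and a log2 fold change of -0.11 (SE 0.12, adjusted p = 0.670).

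Around AKT itself, 1 of 10 tested partners rose and 1 fell. TRIB3, a pseudokinase that binds AKT and is induced by stress, had 718, 1254 and 1315 counts and rose by 0.95 (SE 0.14, edgeR adjusted p = 2.99e-10). HSP90AA1, a chaperone that stabilises AKT, had 43470, 22951 and 24313 counts and fell by 0.77 on the log2 scale (SE 0.06, adjusted p = 1.67e-31). Of the 7 genes of the mTORC2 list, RICTOR, its defining subunit, had 1922, 2660 and 2723 counts and rose by 0.60 (SE 0.10, adjusted p = 3.86e-07). MLST8, a subunit shared with mTORC1, was at -0.22 and did not pass the test. Of 11 tested subunits of protein phosphatase 2A, which acts mainly on the activation loop of AKT, PPP2R5A rose by 0.26 (adjusted p = 0.0420) and PPP2R1A fell by 0.25 (adjusted p = 0.0481, both edgeR).

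Of 18 tested receptors and adaptors, 4 rose. GAB2, an adaptor that recruits PIK3R1, had 3529, 5030 and 5313 counts (log2 fold change 0.66, SE 0.09). CBL, a ubiquitin ligase and adaptor, had 1466, 1656 and 2119 counts (0.47, SE 0.11). PDGFRA and PDGFRB were also called, but their counts lay mainly in shUCP2#2, at 0, 45 and 0 for PDGFRA and 4, 48 and 20 for PDGFRB, the library with the fibroblast marker counts. Whether those counts come from another cell type was not tested.

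Downstream, 1 of 20 AKT substrates rose and 1 fell. FOXO3, a transcription factor that AKT keeps out of the nucleus, had 1794, 2384 and 2512 counts (0.56, SE 0.10). ACLY, which makes cytosolic acetyl-CoA, had 5499, 3590 and 4186 counts (-0.39, SE 0.09). Of 13 other targets of PDPK1, SGK3, a kinase that shares substrates with AKT, had 66, 137 and 127 counts (1.11, SE 0.35), and RPS6KA1, a ribosomal S6 kinase of the MAPK pathway, had 972, 641 and 714 counts (-0.41, SE 0.14).

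The deposited annotation assigns 700 genes to PI3K-Akt signalling, 276 of which were tested, and it includes AKT1, AKT2, PHLPP1 and PHLPP2 but not the other 4 of the 8. Of these 276 genes, 40 rose (14.5%) and 9 fell (3.26%), against 6.25% and 6.11% of all genes tested. Of the 52 that are also annotated to ECM-receptor interaction, 16 rose (30.8%) and 0 fell by the edgeR test, and the median log2 fold change was 0.55 in shUCP2#2 and 0.15 in shUCP2#3. Of the 16, 13 had a log2 fold change in shUCP2#2 over 1 above that in shUCP2#3, against 63 of the 952 genes called higher in all. The collagen COL1A1 had 0, 507 and 0 counts and COL1A2 had 2, 806 and 3. COL5A1 (0, 40 and 0) and the laminin gene LAMA4 (0, 36 and 4) followed the same library. Without the ECM-receptor genes, 24 of 224 rose (10.7%) and 9 fell (4.02%), and 2 of the 24 were over 1 higher in shUCP2#2. Apart from PDGFRA and PDGFRB, the largest differences in that remainder were CREB3L3, a membrane-bound transcription factor, with 18, 58 and 77 counts, and IGF1, a growth factor that activates PI3K, with 17, 43 and 74. These 2 genes were higher in both hairpin libraries.

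**Figure D5:**
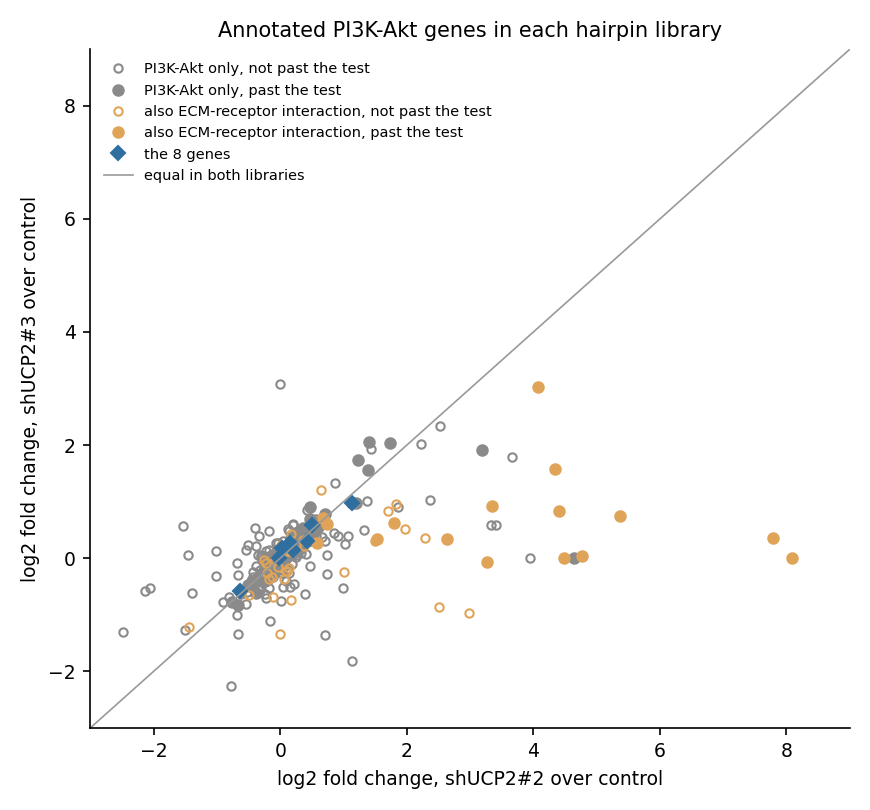
Log2 fold change over the control in shUCP2#2 (x axis) and shUCP2#3 (y axis) for tested genes annotated to PI3K-Akt signalling, in orange where they are also annotated to ECM-receptor interaction, filled where the test was passed, with the 8 genes as blue diamonds. Most filled orange points lie far to the right of the diagonal, as COL1A1 does (8.08 and 0). Both axes share the control library, so a place near the diagonal is no sign of agreement between the hairpins.

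The genes whose hairpin differences were nearest to each called gene were listed among 10198 genes (10199 for PHLPP2, which is itself under the limit) whose mean FPKM reached 1, by the distance between the paired log2 fold changes. For PHLPP2 the nearest were SGK3 (1.19 in shUCP2#2 and 0.98 in shUCP2#3), DHRS2, GTPBP2, ZC3H6 and KRCC1, at distances of 0.0599 to 0.0819. For AKT1 they were ASCC2 (-0.64 and -0.59), MRM1, LSR, ARHGAP4 and NEURL4. For PIK3R1 they were HSPA9 (0.50 and 0.59), GARS1, LAMB2, MADD and CCDC186, and for PIK3CA they were R3HDM2 (0.42 and 0.30), EIF1B, ASB7, MED9 and HSPA13. With only 2 values per gene, such neighbours describe a like size of difference and nothing further.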

How the data were processed

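How RNA was selected for sequencing was not stated, and the extraction text in the labels describes DNA although the molecule is total RNA. Per the submitters' processing notes, cutadapt 1.9.1, HISAT2 2.2.1, HTSeq 0.6.1, Cufflinks 2.2.1, SAMtools 0.1.19 and DESeq2 were used with GRCh38. The authors deposited raw counts per gene and FPKM values. The deposited FPKM equals the count divided by exonic length and library total, with 0 values off by more than rounding. Annotation release and strand setting: not given in the sources used here.

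Counts were tested with edgeR 4.0.16 (R 4.3.3, filterByExpr, TMM, quasi-likelihood F test), shUCP2 (2 libraries) against control (1 library), with Benjamini-Hochberg adjustment over 15232 genes. With 1 residual degree of freedom, the prior degrees of freedom were infinite, so SE and p rest on the spread of genes of like abundance, and the lone control is assumed to vary like the other libraries. CPM used TMM-scaled totals, and single-hairpin log2 fold changes a prior count of 2. A total of 3 counts equals 0.163 to 0.182 CPM. Intervals on single libraries (95%, exact Poisson, or binomial for ratios) cover counting error only. GC content came from the longest GENCODE 29 transcript, and the length in the offsets was the exonic length of the gene. Promoter stretches came from RefSeq, where all 8 symbols matched. Where a gene had several, the stretch nearest its start in the count table was used. Scripts were tested on simulated data.

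The members and lists were chosen with earlier results of these data known. Genes named were the 8, UCP2, the called genes of largest fold change in each list (or the best expressed where fewer than 2 were called), the markers and the nearest genes. The other family members in the shares, KCNMB3 and PDPK2P were named after their values were seen. Alternatives were other filters (none, or a mean FPKM of at least 1), RLE, upper-quartile or total scaling, DESeq2 1.42.0, limma 3.58.1 on log2(FPKM + 0.1, 1 or 5), edgeR with robust estimation or without an abundance trend, offsets for GC content and length (mgcv 1.9.3), and leaving out each hairpin library. Some genes of these lists are not reported here.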

Additional observations from a re-analysis of the deposited data

How the results depend on the processing

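The 8 genes kept their direction in all alternatives run, except AKT2, whose log2 fold change near 0 kept its sign in 10 of 12. AKT1 stayed called in 8 of 12 tested alternatives, PIK3R1 in 7, PIK3CA in 6 and PHLPP2 in 6 of 10. PHLPP2 was removed by a minimum mean FPKM of 1, and DESeq2 gave it no adjusted p. DESeq2 called 0 of the 8 higher (3 by edgeR as reported) and 1 lower, 1 in all (4 at an unadjusted p under 0.05), with adjusted p = 0.0749 for PIK3R1 and 0.232 for PIK3CA. Over all genes DESeq2 called 323 higher and 293 lower of 8036 tested (952 and 931 of 15232 as reported). It called 4 role-list genes higher and 2 lower, 6 in all (15 as reported). Of the annotated PI3K-Akt genes it called 8 higher and 4 lower, 12 in all (49 as reported), and 7 and 4 without the ECM-receptor genes. limma on log2(FPKM + 0.1, 1 or 5) called 0 genes in every list in both directions, with 2 of the 8, 14 to 16 role-list genes, 35 to 40 annotated genes and 31 to 37 without the ECM-receptor genes at an unadjusted p under 0.05. edgeR without an abundance trend also called 0 in every list and both directions, with 3, 13, 33 and 27 at that unadjusted p. Both limma and this fit called 0 of all 15232 genes, so these 0 counts are not particular to the lists. With GC content and length offsets PIK3CA lost its call, and 8 role-list genes fell (4 as reported). Over all 15232 genes, these offsets gave 1026 lower and 758 higher (931 and 952 as reported). With a minimum mean FPKM of 1, 25 annotated genes rose (40 as reported), beside 991 of all 10937 genes tested (952 of 15232 as reported). The causes were not tested. Without shUCP2#2 or shUCP2#3 no test is possible, and the single-hairpin log2 fold changes stand in the report. No paired analysis was possible because the groups share no replicate number.

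Depth limits PHLPP2 most, since it had 100 counts in the control. The single control library limits all comparisons, since its own spread was not measured.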

Other observations

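The promoter stretches of the other genes are given as values. The 250 bases before the RefSeq start of PDPK1 were 81.6% G and C with 42 CpG dinucleotides and 7 GC boxes, those of PIK3CB 72.8% with 27 and 3, those of PHLPP1 71.2% with 33 and 4, and those of AKT2 66% with 18 and 4. The stretch of PIK3CA was 57.6% G and C with 15 CpG, 1 GC box and 1 forkhead match. The RefSeq starts of PIK3CA and AKT2 lay 243 and 191 bases inside the genes as the count table defines them. The longest run of identical bases was 17 between PHLPP1 and PHLPP2 and 12 between PIK3CA and PIK3CB.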
